A study of Mus musculus with 4 samples.

Results

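The 40 genes described here encode kinases, cyclins, checkpoint proteins, centromere proteins and ubiquitin enzymes of mitosis. They were chosen by symbol from a written list, and 39 of the 40 were matched among the 19564 gene symbols of the files. The symbol Cdk1 is matched only by its older synonym Cdc2a, which stays outside every count. Of the 39 genes, 14 act in entry into mitosis, 5 in the spindle checkpoint, 10 at the centromere and 10 in exit from mitosis and cell division.

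The cells were erythroblasts from the livers of mouse embryos at embryonic day 14.5, stained for the red cell antigen TER119 and for CD71, the transferrin receptor, and sorted by flow cytometry. R2 holds proerythroblasts and early basophilic erythroblasts, R3 early and late basophilic erythroblasts, R4 mostly polychromatophilic and orthochromatophilic erythroblasts, and R5 late orthochromatophilic erythroblasts with reticulocytes. Early basophilic cells thus fall in both R2 and R3, and orthochromatophilic cells in both R4 and R5. No strain, genotype or treatment is given in the sources used here, and RNA came straight from the sorted cells. Each population gave 1 library of polyadenylated RNA, so differences lack replicates and carry no p-value.

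Mitosis starts when the kinase CDK1, paired with cyclin A or B, is switched on by CDC25 phosphatases. The spindle checkpoint then holds the chromosomes until every kinetochore, the protein plate on the centromere, is attached to microtubules. Release comes through the anaphase-promoting complex (APC/C), a ubiquitin ligase that CDC20 activates in mitosis and CDH1, the product of Fzr1, activates in late mitosis and G1. Erythroblasts go on dividing while they fill with hemoglobin, then leave the cell cycle and expel the nucleus.

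Values are RPKM as the authors deposited them, reads scaled to gene length and library size. The gene lengths used are not given, so differences in level between genes rest on lengths that could not be checked. Ratios are log2 ratios of RPKM + 1, later population over earlier, over the 9942 genes that reached 1 RPKM in at least 1 library. All 39 genes passed that limit. The smallest steps of the values implied between 20700000 and 27400000 reads per library. Globin transcripts held 5.52%, 59.4%, 80.4% and 81.9% of the summed RPKM across R2, R3, R4 and R5, and a larger globin share lowers the RPKM of every other gene. The median log2 ratio of all genes was -1.09 for R3 over R2, -0.77 for R4 over R3, 0.27 for R5 over R4 and -1.65 for R5 over R2. Deposited levels are read beside those medians, beside 2 rescalings, and beside the rank of a gene within its own library, which needs no scaling. The first rescaling, median scaling, divides each library by the median of its gene ratios, and the second removes the globin genes. All 10 erythroid markers were at 1 RPKM or more in every library. Granulocyte markers moved too, with a summed level of 6167, 428, 236 and 472 RPKM across R2, R3, R4 and R5 over 11 genes, and their part in the results that follow was not tested. In such bulk samples, fewer cells of a type and less RNA per cell cannot be told apart.

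The mitotic genes made up a larger part of the RPKM outside the globins in R3, R4 and R5 than in R2. Their summed level was 1601, 2567, 1844 and 1784 RPKM across R2, R3, R4 and R5. Set against the RPKM outside the globins, that sum was 0.425%, 1.17%, 1.34% and 1.13% across R2, R3, R4 and R5. The median mitotic gene was at 29.5, 33.8, 16.7 and 18.6 RPKM across R2, R3, R4 and R5, while the median of all genes kept was at 11.4, 4.53, 2.02 and 2.81. A large part of the late sum came from 3 genes, Ube2c, Fzr1 and Cdc25b, which together made up 14.2%, 34.4%, 52.7% and 50.9% of it across R2, R3, R4 and R5. The remaining genes summed to 1373, 1685, 873 and 876 RPKM across R2, R3, R4 and R5. These sums are as deposited, so a larger globin share lowers them, and they are not set against the RPKM outside the globins.

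**Figure D1:**
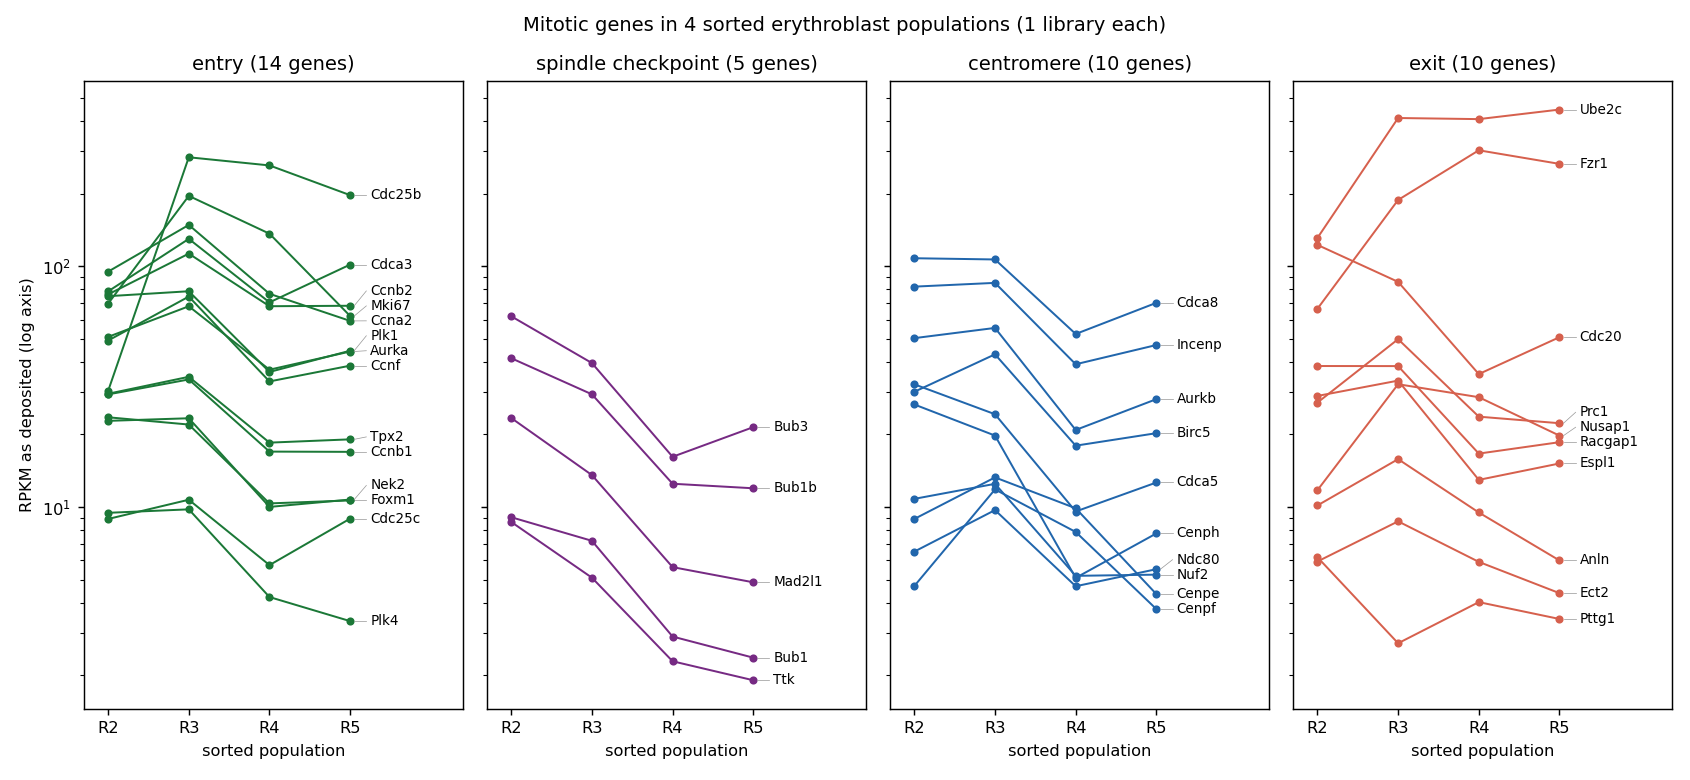
RPKM as deposited (vertical log axis) of the 39 mitotic genes in the 4 sorted populations (horizontal axis), 1 line per gene and 1 panel per role. Most lines peak in R3, the 5 checkpoint lines are highest in R2, and Ube2c, Fzr1 and Cdc25b stay far above the rest in R4 and R5.

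The rank within the library showed the group's change at the first step most plainly. The median mitotic gene stood at percentile 74.6, 89.2, 88.5 and 87.7 across R2, R3, R4 and R5. Every one of the 39 genes ranked higher in R3 than in R2, where 45.5% of all genes did so. None had its highest rank in R2, while 26 had it in R3, 11 in R4 and 2 in R5. Of the 9942 genes kept, 4627, 1947, 2136 and 1232 ranked highest across R2, R3, R4 and R5. The lowest rank was that of Cenpf in R2, at percentile 26.9, and the highest that of Ube2c in R4, at 99.5.

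**Figure D2:**
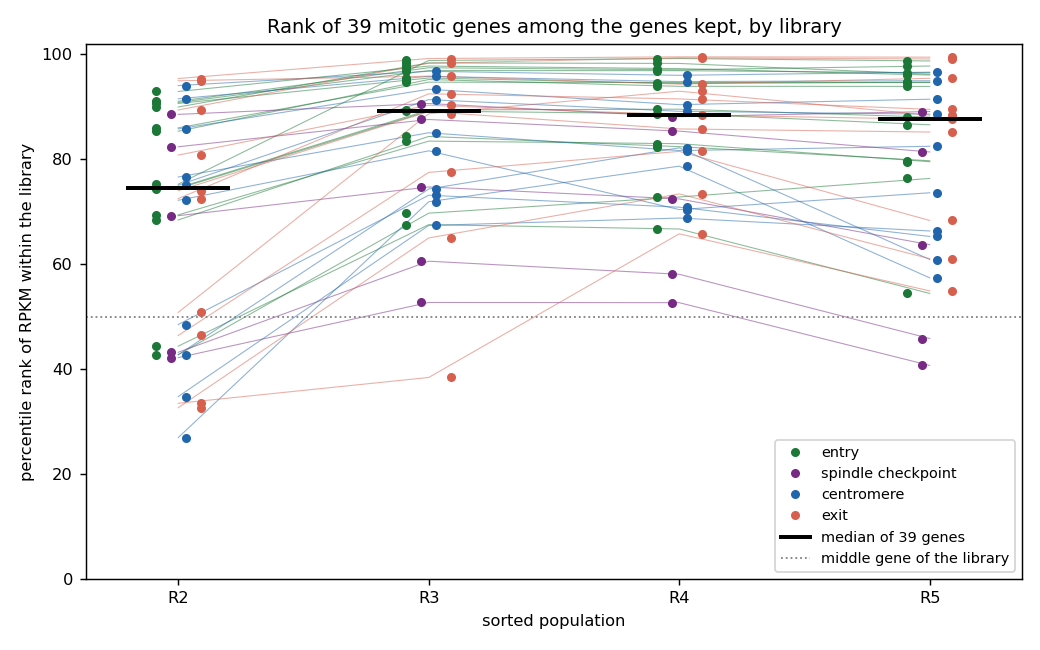
Percentile rank of RPKM within each library (vertical axis) for the 39 mitotic genes in the 4 populations (horizontal axis), points coloured by role, thin lines joining each gene and black bars at the median. The median lies at 74.6 in R2 and between 87.7 and 89.2 in the other populations.

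The promoters of the mitotic genes were examined because many late cell cycle genes are known to share a pair of elements. One is the cell cycle homology region, bound by MuvB complexes, here searched as TTTGAA and, in a variant form, as TTTAAA, and the other is the CCAAT box, bound by NF-Y. The site of GATA factors was searched as AGATAA. The site of E2F factors was searched as GCGGGAA. Each search covered both strands of RefSeq windows of build GRCm38.p6 that run 250 bases before to 50 bases after the start. A window was matched for 33 of the 39 genes. Foxm1, Ccna2, Cdc25c, Tpx2, Aurkb and Incenp had no match. Of the 33, 20 held TTTGAA, or 60.6%, beside 13.9% of the 6931 genes kept that had a window and 20.2% of all 27025 genes with one. CCAAT was in 24, or 72.7%, beside 43.6% and 41.1%, and 15 held it at least 2 times, or 45.5%, beside 17.7% and 13.3%. Both TTTGAA and CCAAT, counted over all windows of a gene, were held by 17, or 51.5%, beside 6.95% and 8.97%. TTTAAA was in 8, or 24.2%, beside 10.3% and 14.9%. AGATAA was in 1, Espl1, or 3.03%, beside 7.65% and 12.7%, and GCGGGAA in 2, Plk4 and Cenph, or 6.06%, beside 10.4% and 5.29%. A match is a description of these letters and not a shown binding site. No motif contains another, though neighbouring matches may share bases, and TTTAAA reads the same on both strands.

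The 150 bases before the start are shown for the 3 genes that were highest in R4 and R5, and then for 3 genes of entry, checkpoint and exit that were not. Capitals mark the CCAAT box and both forms of the homology region, on either strand. All are read 5′ to 3′ on the strand of the gene, in build GRCm38.p6. Ube2c lies at chr2:164769779-164769928 on the plus strand, Fzr1 at chr10:81378371-81378520 on the minus strand and Cdc25b at chr2:131186798-131186947 on the plus strand. Cdc20 lies at chr4:118437344-118437493 on the minus strand, Ccnb1 at chr13:100786487-100786636 on the minus strand and Bub3 at chr7:131560220-131560369 on the plus strand.
Ube2c: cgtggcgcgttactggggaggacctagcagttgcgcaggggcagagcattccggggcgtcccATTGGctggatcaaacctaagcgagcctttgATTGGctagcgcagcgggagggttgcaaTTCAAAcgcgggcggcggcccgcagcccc
Fzr1: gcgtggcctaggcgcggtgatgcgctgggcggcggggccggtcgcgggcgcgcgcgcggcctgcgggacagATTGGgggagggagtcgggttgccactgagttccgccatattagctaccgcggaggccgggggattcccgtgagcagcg
Cdc25b: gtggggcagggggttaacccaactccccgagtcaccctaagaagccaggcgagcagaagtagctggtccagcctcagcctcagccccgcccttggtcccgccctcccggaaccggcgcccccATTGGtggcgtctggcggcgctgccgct
Cdc20: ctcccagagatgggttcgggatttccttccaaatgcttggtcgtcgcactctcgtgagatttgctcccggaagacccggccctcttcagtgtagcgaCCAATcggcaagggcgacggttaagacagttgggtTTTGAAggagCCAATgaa
Ccnb1: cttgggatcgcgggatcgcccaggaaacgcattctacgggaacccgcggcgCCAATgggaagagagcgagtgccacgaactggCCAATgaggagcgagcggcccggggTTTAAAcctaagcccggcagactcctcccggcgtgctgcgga
Bub3: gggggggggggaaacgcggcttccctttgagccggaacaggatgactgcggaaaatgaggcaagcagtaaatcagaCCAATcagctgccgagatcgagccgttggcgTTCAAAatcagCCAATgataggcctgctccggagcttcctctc

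In these stretches Ube2c, Cdc20 and Bub3 each held TTTGAA with a pair of CCAAT boxes before or on either side of it, and Ccnb1 held TTTAAA after a pair of them. Fzr1 and Cdc25b each held 1 CCAAT and neither form of the homology region. Ube2c had 6 CCAAT matches over its whole window, the most of the 33 genes, followed by Cdca8 with 4. Mad2l1, Nuf2, Pttg1 and Nusap1 held none of the 5 motifs. The genes with a high late level thus did not share one arrangement. Ube2c held TTTGAA and CCAAT, as 17 of the 33 genes did, while Fzr1 and Cdc25b held CCAAT without either form of the homology region.

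**Figure D3:**
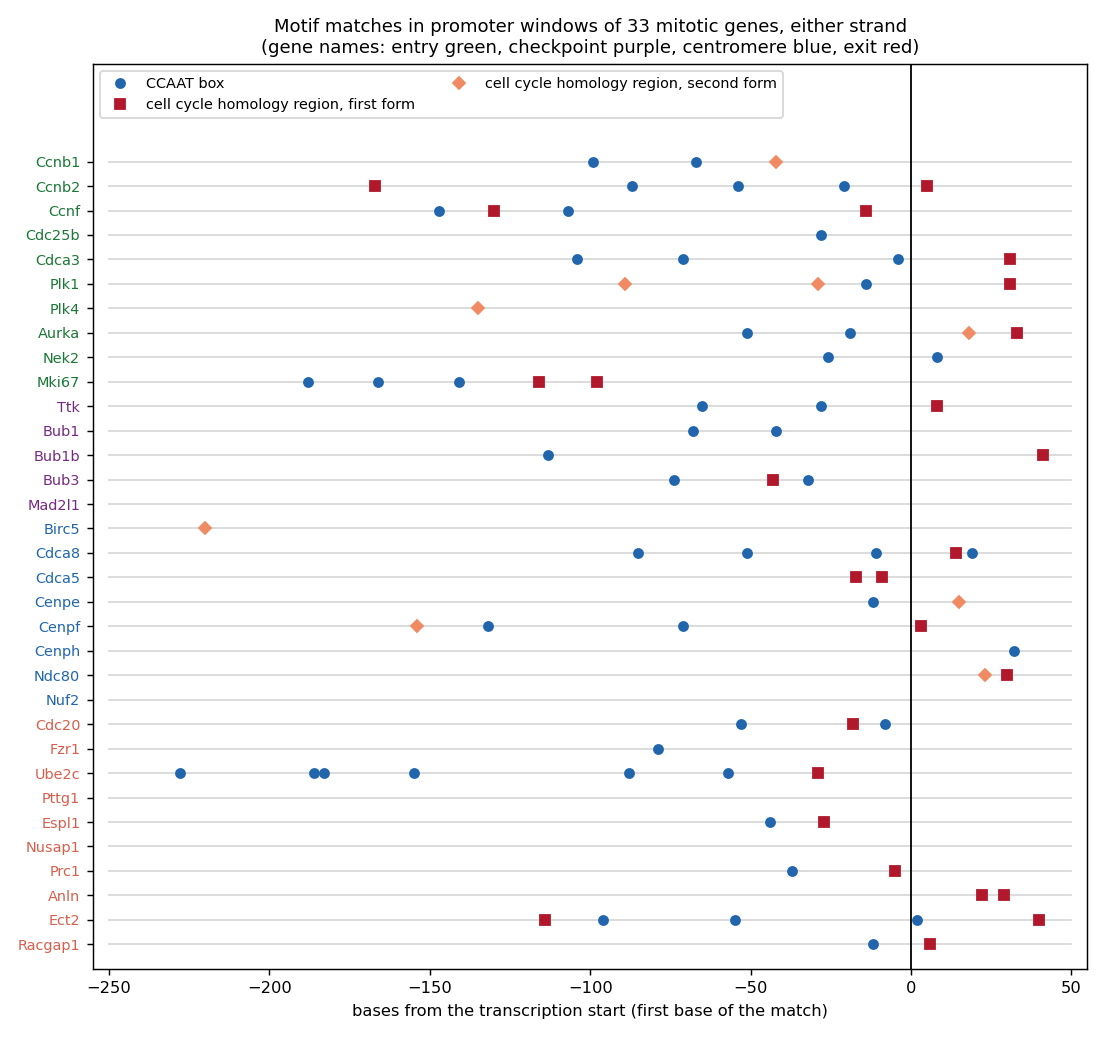
Position of CCAAT (circles) and of the TTTGAA (squares) and TTTAAA (diamonds) forms of the cell cycle homology region, in bases from the transcription start (horizontal axis), in the first RefSeq window of 33 mitotic genes (vertical axis, grouped by role). CCAAT is in 24 genes and TTTGAA in 20, while Fzr1 and Cdc25b have 1 CCAAT each and no square or diamond.

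The levels by role that follow are as deposited. Of the 14 genes of mitotic entry 13 were highest in R3, beside 8.75% of all genes, and Foxm1 was highest in R2, beside 86.2%. With median scaling 4 were highest in R3, 8 in R4 and 2 in R5, beside 11.3%, 17.8% and 8.44% of all genes. With globins removed 10 were highest in R3, 2 in R4 and 2 in R5, beside 15.2%, 9.63% and 5.46%. The CDC25 phosphatases, which remove the brake from CDK1, differed from each other. Cdc25b, which acts first at the centrosome, was at 30.3, 283, 262 and 197 RPKM across R2, R3, R4 and R5. Cdc25c, which acts later, was at 8.92, 10.7, 5.74 and 8.95 across R2, R3, R4 and R5. Cdc25b was thus low only in R2, and its level was 3.40 times that of Cdc25c in R2, 26.4 times in R3, 45.6 times in R4 and 22.0 times in R5. Its level in R5 was 6.49-fold that in R2, with a 95% interval of 6.23 to 6.77 that covers counting error only, as do the other intervals given here.

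As deposited, the mitotic cyclins followed 1 course, highest in R3 and lower by R4. Ccna2, the cyclin of S phase and early mitosis, was at 94.8, 148, 76.7 and 59.2 RPKM across R2, R3, R4 and R5. Ccnb1, the main partner of CDK1, was at 29.3, 33.8, 17.0 and 16.9 in the same order, and Ccnb2, its Golgi-bound relative, at 76.2, 113, 68.1 and 68.4. Ccnf, the F-box protein of a ubiquitin ligase, was at 49.1, 74.7, 33.2 and 38.6 RPKM across R2, R3, R4 and R5. All 4 were highest in R3 as deposited, beside 8.75% of all genes, and with globins removed, beside 15.2%. With median scaling Ccnf stayed highest in R3, while Ccna2, Ccnb1 and Ccnb2 were highest in R4, beside 17.8% of all genes. Ccnb2 stood above Ccnb1 in every library. Cdc2a, the synonym of Cdk1, was at 22.7, 27.3, 12.8 and 14.9 RPKM across R2, R3, R4 and R5, a course like that of the cyclins.

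Among the entry kinases, Plk1, which acts at centrosomes and kinetochores, was at 74.97, 78.6, 36.4 and 44.5 RPKM across R2, R3, R4 and R5. Aurka, the Aurora kinase of the spindle poles, was at 50.8, 68.1, 37.1 and 44.2, and its activator Tpx2 at 29.5, 34.7, 18.5 and 19.1. Both kinases were highest in R3 and lowest in R4 as deposited, and lowest in R2 under both rescalings. Plk4, which builds new centrioles, was low throughout, at 9.46, 9.78, 4.23 and 3.36 RPKM across R2, R3, R4 and R5. Nek2, which splits the centrosomes, was at 22.8, 23.4, 10.01 and 10.7, and Foxm1, the transcription factor of many late cell cycle genes, at 23.6, 22.0, 10.3 and 10.7. For Plk4, Nek2 and Foxm1 the deposited levels of R2 and R3 lay close together, and so did those of R4 and R5. Their log2 ratios of R3 over R2 with median scaling were 0.80, 0.86 and 0.73, beside -0.37 over all genes. Those of R5 over R4 with median scaling were -0.60, -0.25 and -0.31, beside 0.074. Cdca3, an F-box-like protein that helps trigger entry, was at 78.5, 130, 70.7 and 101 RPKM across R2, R3, R4 and R5. Mki67, which coats mitotic chromosomes and serves as a proliferation marker, was at 69.8, 196, 136 and 62.0, so that it alone among the entry genes was at least 2-fold lower in R5 than in R4.

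All 5 spindle checkpoint genes had their highest deposited level in R2, as did 86.2% of all genes. With median scaling all 5 were highest in R3, beside 11.3% of all genes. With globins removed all except Mad2l1 were highest in R3, beside 15.2%. By rank within the library all 5 stood highest in R3 as well, as did 1947 of the 9942 genes kept. Ttk, the kinase that starts checkpoint signalling, was at 8.67, 5.09, 2.29 and 1.91 RPKM across R2, R3, R4 and R5. Bub1, a kinetochore kinase, was at 9.07, 7.24, 2.90 and 2.37, and its relative Bub1b, a subunit of the inhibitor of CDC20, at 41.5, 29.4, 12.5 and 12.0. Bub3, the adaptor of both, was at 61.9, 39.6, 16.2 and 21.5 RPKM across R2, R3, R4 and R5. Mad2l1, the MAD2 protein that captures CDC20, was at 23.4, 13.6, 5.63 and 4.87. Levels were lower at each step from R2 to R5 in 4 of these genes, and Bub3 was lowest in R4. All 5 were at least 2-fold lower in R5 than in R2 as deposited, where 76.9% of all genes were, with a median log2 ratio of -1.71, beside -1.65 over all genes. With median scaling 0 of the 5 were past 2-fold lower, beside 13.8% of all genes, with a median of -0.26, and with globins removed 0 were, beside 28.9%, with a median of -0.54.

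At the centromere, the chromosomal passenger complex had its highest deposited level in R2 or R3. It holds the kinase Aurkb, its scaffold Incenp, the survivin gene Birc5 and borealin, the product of Cdca8. Aurkb was at 50.2, 55.4, 20.9 and 28.0 RPKM across R2, R3, R4 and R5, and Incenp at 82.1, 85.2, 39.1 and 47.0. Birc5 was at 30.1, 43.0, 18.0 and 20.2 RPKM across R2, R3, R4 and R5, and Cdca8 at 108, 106, 52.2 and 70.4. In deposited values all 4 were lowest in R4, as were 73.2% of all genes. Under both rescalings all 4 were lowest in R2, beside 21.1% of all genes with median scaling and 15.7% with globins removed. With median scaling Cdca8 was highest in R5 and the others in R3, and with globins removed all 4 were highest in R3. Cdca5, the sororin that protects cohesion between sister chromatids, was at 32.3, 24.3, 9.58 and 12.6.

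The kinetochore genes took different courses. Cenpe, a kinesin motor that moves chromosomes to the spindle equator, was at 8.92, 13.3, 9.88 and 4.35 RPKM across R2, R3, R4 and R5. Cenpf, a very large protein of the outer kinetochore, was at 4.70, 11.8, 7.88 and 3.77. Cenph, of the inner kinetochore, was at 26.6, 19.8, 5.08 and 7.77. The ratio of Cenpf to Cenph was thus 0.176, 0.598, 1.55 and 0.485 across R2, R3, R4 and R5. Ndc80 and Nuf2 form the rod that grips the microtubule. Ndc80 was at 6.53, 9.71, 4.69 and 5.52 RPKM across R2, R3, R4 and R5, and Nuf2 at 10.8, 12.5, 5.18 and 5.24. Both were highest in R3 as deposited and with globins removed, while with median scaling Ndc80 was highest in R4 and Nuf2 in R3.

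Among the exit genes, the 2 activators of the APC/C changed places. Cdc20, the mitotic activator, was at 122, 86.0, 35.6 and 50.7 RPKM across R2, R3, R4 and R5. Fzr1, the activator of late mitosis and G1, was at 66.5, 188, 302 and 265 across R2, R3, R4 and R5. Cdc20 stood above Fzr1 in R2 and below it in the other 3 populations, with a ratio of Cdc20 to Fzr1 of 1.84, 0.457, 0.118 and 0.191 across R2, R3, R4 and R5. This ratio is taken within a library, so no scaling between libraries alters it. Fzr1 in R5 was 3.99-fold its level in R2 (counting interval 3.89 to 4.10), while Cdc20 was 0.414-fold (0.393 to 0.436), both as deposited. The log2 ratio of Cdc20 for R5 over R2 was -1.26 as deposited, 0.33 after median scaling and -0.019 after globin removal, so its direction between the libraries depended on the scaling.

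Ube2c, the ubiquitin-conjugating enzyme that works with the APC/C, was the highest of the 39 genes in every library. It was at 131, 411, 407 and 446 RPKM across R2, R3, R4 and R5. It made up 22.1% of the summed level of the mitotic genes in R4, against 8.17% in R2. The APC/C substrate Pttg1, the securin that blocks separase, was the lowest of the exit genes in R3, R4 and R5, with 6.19, 2.72, 4.03 and 3.43 RPKM across R2, R3, R4 and R5. Those R3 reads were few, about 139 by the exonic length of the gene. Espl1, separase itself, was at 28.9, 33.5, 12.96 and 15.2.

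Genes of the spindle midzone and of cytokinesis were mostly highest in R3 as deposited, beside 8.75% of all genes. Median scaling put all except Racgap1 highest in R4, beside 17.8%. Globin removal put Prc1, Anln and Racgap1 highest in R3, beside 15.2%, and Nusap1 and Ect2 in R4, beside 9.63%. Nusap1, which bundles spindle microtubules, was at 11.7, 32.3, 28.6 and 19.8 RPKM across R2, R3, R4 and R5. Prc1, which crosslinks the midzone, was at 27.1, 49.7, 23.7 and 22.3. Anln, the anillin of the contractile ring, was at 10.2, 15.8, 9.49 and 6.0 RPKM across R2, R3, R4 and R5. Ect2, which activates RhoA at the division plane, was at 5.94, 8.72, 5.92 and 4.39, and its partner Racgap1 at 38.5, 38.4, 16.7 and 18.6. Nusap1 alone of these stayed above its deposited R2 level in both R4 and R5. Under both rescalings every one of these genes was lowest in R2, beside 21.1% of all genes with median scaling and 15.7% with globins removed.

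R3 against R2 compares basophilic erythroblasts with the population before them. In deposited values 6 of the 39 genes, or 15.4%, were higher in R3 by 2-fold or more, beside 3.81% of all genes. None was lower by that much, beside 55.1% of all genes. With median scaling 20 were higher, beside 8.4% of all genes, and 0 lower, beside 18.0%, and with globins removed 17 were higher, beside 7.7%, and 0 lower, beside 22.0%. The 6 were Cdc25b with a ratio of 3.18 on the log2 scale, Ube2c at 1.65, Fzr1 at 1.49, Mki67 at 1.47, Nusap1 at 1.39 and Cenpf at 1.17. The median was 0.20, beside -1.09 over all genes, while median scaling gave 1.04 and globin removal 0.94. By role the medians were 0.33 for entry, -0.63 for the checkpoint, 0.16 for the centromere and 0.54 for exit.

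R4 against R3 compares mostly polychromatophilic and orthochromatophilic cells with basophilic ones. In deposited values 20 of the 39 genes, or 51.3%, were lower in R4 by 2-fold or more, beside 32.1% of all genes, and none was higher by that much, beside 0.493%. Cenph had the lowest ratio, -1.77, followed by Aurkb at -1.37 and Espl1 at -1.30. At the other end stood Fzr1 at 0.68 and Pttg1 at 0.44, the only 2 genes above 0. The median of the 39 was -1.01, beside -0.77 over all genes. With median scaling it was 0.019, with 0 genes lower, beside 0.382% of all genes, and 3 higher, beside 4.27%, namely Fzr1 at 1.77, Pttg1 at 1.32 and Ube2c at 1.07. With globins removed it was -0.38, with 1 gene lower, Cenph at -1.19, beside 2.66%, and 1 higher, Fzr1 at 1.35, beside 1.93%.

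R5 against R4 compares the most mature cells, reticulocytes included, with those before them. None of the 39 genes was higher in R5 by 2-fold or more, beside 3.97% of all genes, and 2 were lower, Mki67 at -1.12 and Cenpe at -1.02, beside 0.604%. Cenpf followed at -0.90, Anln at -0.58 and Nusap1 at -0.51. At the other end were Cdc25c at 0.56, Cenph at 0.53, Cdca3 at 0.52 and Cdc20 at 0.50. The median was 0.038 as deposited, beside 0.27 over all genes, while median scaling gave -0.31 and globin removal -0.15. With median scaling 0 genes were higher, beside 1.75% of all genes, and 3 lower, beside 2.56%, and with globins removed 0 were higher, beside 2.71%, and 3 lower, beside 1.54%. The 3 were Mki67, Cenpe and Cenpf under both rescalings.

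The ratios of this last step moved with exonic length, the joined exon bases of all annotated transcripts of a gene. Mki67 has 10061 exonic bases, Cenpe 8620, Cenpf 15433 and Anln 9063, whereas Cenph has 1784 and Cdc20 1868. Across the 39 genes Spearman's rho between exonic length and the ratio of R5 over R4 was -0.40, and across 8683 of all genes it was -0.35, points that all share the same 2 libraries. The median ratio over all genes was 0.59 for the 644 genes under 1500 exonic bases and 0.13 for the 2722 genes with 6000 bases or more. In R3 against R2 the corresponding rho over all genes was 0.055. The part of length or RNA quality in the low ratios of Mki67, Cenpe and Cenpf was not tested. Espl1, with 8749 exonic bases, was at 0.21, so not every long gene of the list was lower.

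**Figure D4:**
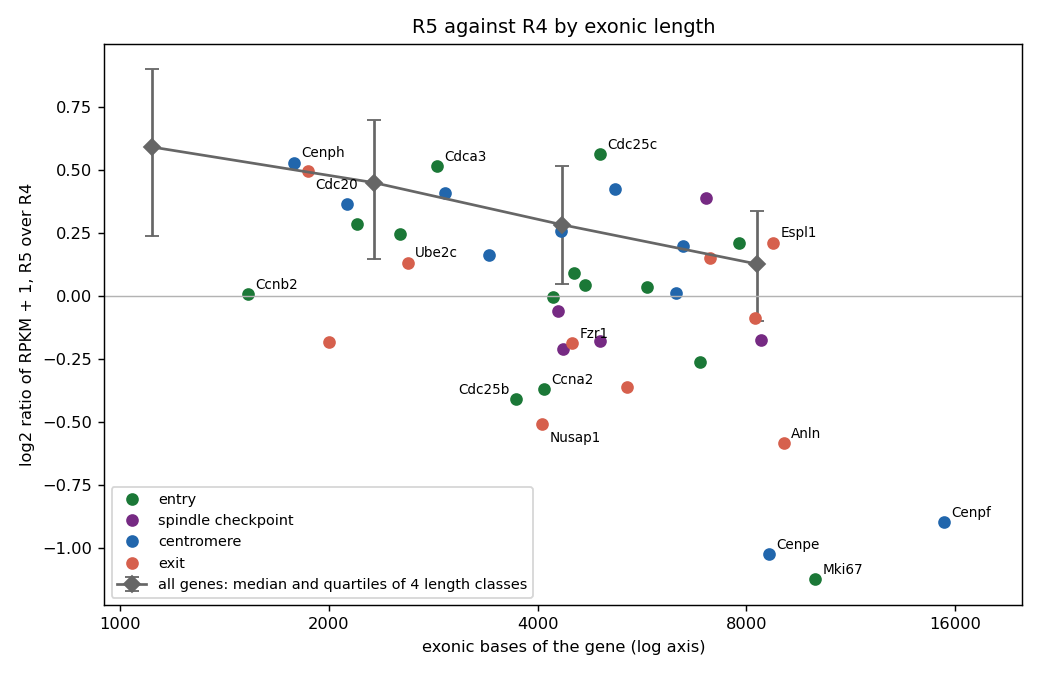
Log2 ratio of RPKM + 1 in R5 over R4 (vertical axis) against exonic bases of the gene (horizontal log axis) for the 39 mitotic genes, coloured by role, with medians and quartiles of all genes in 4 length classes in grey. The grey medians descend from 0.59 to 0.13 with length, and Mki67, Cenpe and Cenpf lie below the rest.

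R5 against R2 spans the whole course. In deposited values 3 of the 39 genes, or 7.69%, were higher in R5 by 2-fold or more, beside 2.74% of all genes, and 12, or 30.8%, were lower, beside 76.9%. The 3 were Cdc25b with a ratio of 2.66 on the log2 scale, Fzr1 at 1.98 and Ube2c at 1.76. They stayed past 2-fold higher with median scaling, at 4.21, 3.56 and 3.35, and with globins removed, at 3.87, 3.22 and 3.01. The 12 lower genes were the 5 checkpoint genes, Cenph, Cdca5, Plk4, Cdc20, Foxm1, Nek2 and Racgap1, between -2.06 for Mad2l1 and -1.01 for Racgap1. Under both rescalings 0 of the 39 genes were lower by 2-fold or more, beside 13.8% of all genes with median scaling and 28.9% with globins removed. The higher genes then numbered 12, beside 9.42%, with median scaling and 9, beside 7.28%, with globins removed. The median was -0.70 as deposited, beside -1.65 over all genes, and it was 0.78 beside -0.42 with median scaling and 0.44 beside -0.67 with globins removed. By rank, 36 of the 39 genes stood higher in R5 than in R2, beside 38.8% of all genes, and the 3 that did not were Ttk, Bub1b and Mad2l1 of the checkpoint. With R3 in place of R2, a comparison chosen after the data were seen, 0 of the 39 were past 2-fold higher in R5 and 17 past 2-fold lower as deposited, beside 0.664% and 13.1% of all genes. With median scaling 1 was higher, Fzr1 at 1.21, beside 2.94% of all genes, and 0 lower, beside 1.01%, with a median of -0.26. With globins removed 0 were higher, beside 1.72%, and 3 lower, Mki67 at -1.17, Cenpf at -1.03 and Cenpe at -1.01, beside 2.72%, with a median of -0.49. By rank 5 of the 39 stood higher in R5 than in R3, beside 47.1% of all genes.

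**Figure D5:**
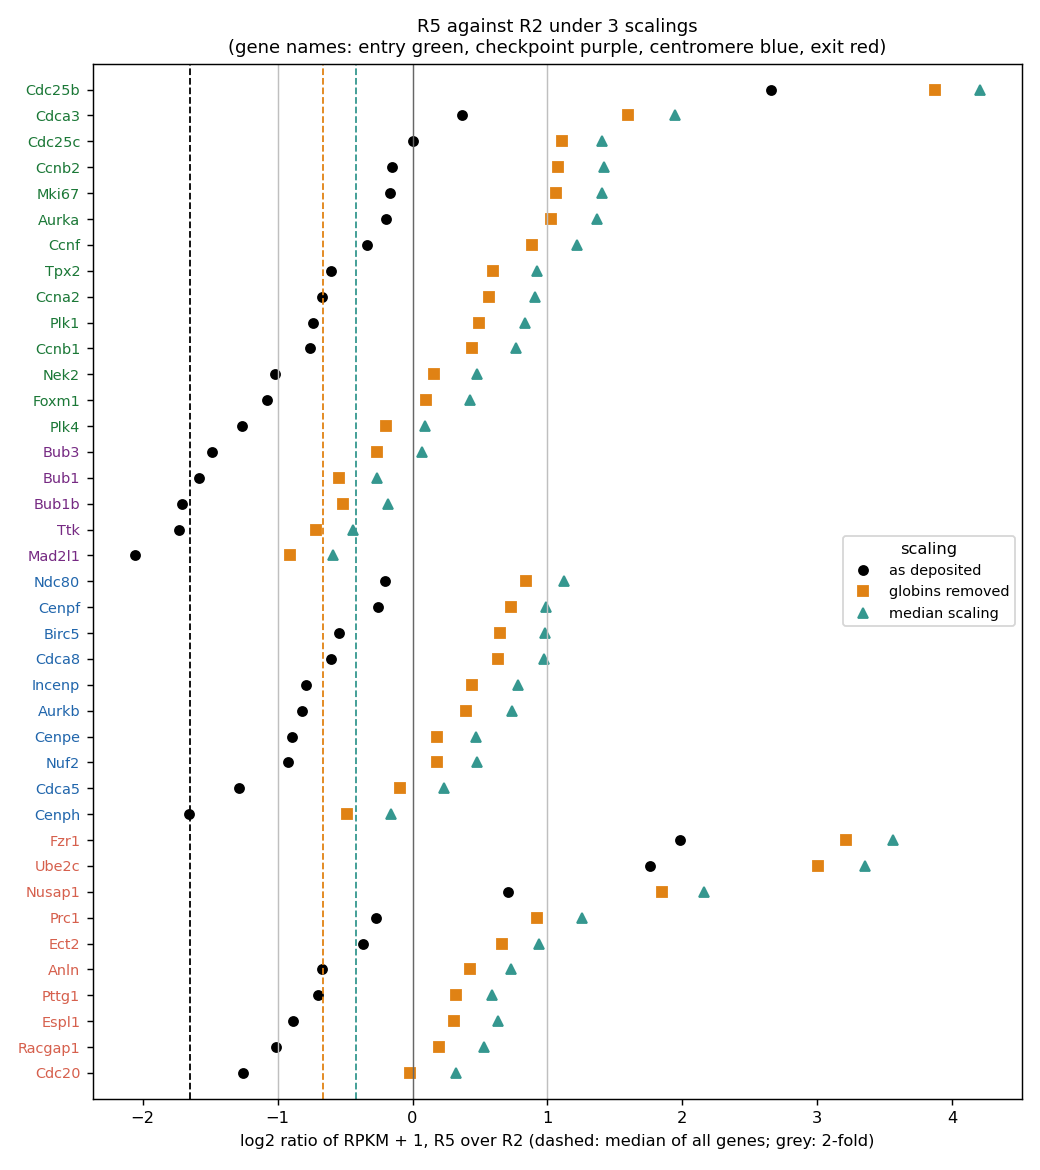
Log2 ratio of RPKM + 1 in R5 over R2 (horizontal axis) for each of the 39 mitotic genes (vertical axis, grouped by role) as deposited, with globins removed and with median scaling; dashed lines mark the median of all genes under each scaling and grey lines the 2-fold limits. Cdc25b, Fzr1 and Ube2c lie past 2-fold higher under all 3, and the 5 checkpoint genes lie past 2-fold lower only as deposited.

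Further lists of mitotic genes are set beside the shares of all genes in R5 over R2, which were 76.9% lower and 2.74% higher by 2-fold or more as deposited, 13.8% and 9.42% after median scaling, and 28.9% and 7.28% after globin removal. Of 28 other kinetochore and checkpoint genes 14 were lower and 0 higher as deposited, 0 lower and 4 higher with median scaling, and 0 lower and 1 higher with globins removed. Their medians under these scalings were -1.03, 0.25 and -0.022. Mad2l1bp, which takes the checkpoint apart, had the highest deposited ratio of them, 0.94, at 24.4 RPKM in R5 and 12.3 in R2, and Cenpo, of the inner kinetochore, the lowest, -2.00. Of 17 other spindle and cytokinesis genes 10 were lower and 0 higher as deposited, 1 lower and 3 higher with median scaling, and 2 lower and 1 higher with globins removed. Their medians were -1.06, 0.48 and 0.15, and their deposited ratios lay between 0.037 for Dlgap5 and -2.43 for Haus1. Of 11 mitotic kinesins 5 were lower and 0 higher as deposited, 0 lower and 2 higher with median scaling, and 0 in either direction with globins removed, with medians of -0.67, 0.82 and 0.50. Of 14 condensin, cohesin and topoisomerase genes 10 were lower and 0 higher as deposited, and 0 in either direction under both rescalings, with medians of -1.24, 0.26 and -0.064.

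Of 13 genes kept for the core subunits of the APC/C, Ube2s and Fbxo5, 10 were lower and 0 higher in R5 over R2 as deposited, a share of lower genes equal to that of all genes. With median scaling 0 were lower and 1 higher, and with globins removed 3 were lower and 1 higher. Their medians were -1.87, -0.38 and -0.66. Ube2s, which extends the ubiquitin chains that Ube2c starts, was the higher gene, at 2.12 after median scaling and 1.77 after globin removal. Its deposited ratio was 0.52, with 416, 512, 514 and 598 RPKM across R2, R3, R4 and R5. The subunit gene Anapc5 was at 171, 142, 58.0 and 61.6, and Cdc26, another subunit, had the lowest deposited ratio, -2.35. Of 10 other regulators of CDK1 6 were lower and 0 higher as deposited, and 1 lower and 0 higher under either rescaling, with medians of -1.28, 0.12 after median scaling and -0.13 after globin removal. Gtse1 had the highest deposited ratio of these, -0.61, against which median scaling gave 0.91 and globin removal 0.58. Cdc25a, the S phase phosphatase of the Cdc25 family, had the lowest, -2.54, and was the lower gene under both rescalings, at -1.04 and -1.36. It was at 41.8, 12.6, 4.5 and 6.35 RPKM across R2, R3, R4 and R5.

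DNA replication genes stood below the mitotic genes at the step to R4. In deposited values 20 of the 39 mitotic genes, with a median of -1.01, and all 31 replication genes, with a median of -1.69, were past 2-fold lower in R4 over R3, beside 32.1% of all genes. With median scaling 0 of the mitotic and 0 of the replication genes were lower, beside 0.382% of all genes, with medians of 0.019 and -0.70. With globins removed 1 of the mitotic and 17 of the replication genes were lower, beside 2.66%, with medians of -0.38 and -1.08. Pcna, the sliding clamp of the replication fork, was at 600, 651, 162 and 195 RPKM across R2, R3, R4 and R5. With 1 library per population this difference between lists has no test. Of 13 regulators of G1 and S phase 8 were past 2-fold lower and 1 higher in R5 over R2 as deposited, beside 76.9% and 2.74% of all genes. Median scaling gave 3 lower and 5 higher, beside 13.8% and 9.42%. Globin removal also gave 3 lower and 5 higher, beside 28.9% and 7.28%. Cdkn2d, an inhibitor of CDK4 and CDK6, had the highest deposited log2 ratio, 3.14, and Cdk6, its target kinase, the lowest, -3.05. Of 16 factors that control late cell cycle promoters 9 were lower and 1 higher as deposited. With median scaling 0 were lower and 1 higher, and with globins removed 3 were lower and 1 higher. E2f2 had the highest deposited ratio, 2.18, and Tfdp1, the partner of E2F proteins, the lowest, -2.45. Median scaling gave 3.73 for E2f2 and -0.87 for Tfdp1, and globin removal gave 3.39 and -1.22.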

How the data were processed

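Messenger RNA of 4 sorted populations was measured, 1 library each. Per the file headers the deposited values are RPKM, with 2 decimals, made on build mm9 per the submitters' processing notes. Which aligner, counter and gene lengths the authors used is not given in the sources used here.

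A gene was kept if any library reached 1 RPKM (9942 of 19564), and 4 comparisons were made on log2(RPKM + 1). This scale understates the change of low genes. A ratio of at least 2-fold counted as higher or lower. With 1 library per population no test was made. Median scaling used 2745 genes at 5 RPKM or more in all 4 libraries. Globin removal left out 7 genes and rescaled the rest to a common sum. Ranks are percentiles among the genes kept. Reads were estimated from the smallest value above 0 of 6 genes (Rps27, Gapdh, Rps13, Rpl23a, Rps12 and Sumo2), taken as 1 read over 1 base, and from exonic lengths in GENCODE M21 (GRCm38), which may differ from the lengths used for the RPKM. Exonic lengths join the exons of all annotated transcripts of a gene, so they can exceed the length of any 1 transcript. Intervals are exact binomial 95% intervals of these reads, and are too narrow where those lengths are too long.

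The 40 genes and all lists were chosen with earlier results of these data known. Named genes were all members and, of each other list, those with the highest mean and extreme ratios. Pairs of genes set as ratios, and the promoters printed, were chosen after values were seen. Alternatives were both rescalings, a pseudocount of 0.1 or 5 RPKM, keeping all genes, keeping genes that reach 5 RPKM and, added after seeing the data, R5 against R3. Protein motifs were not analysed here. Only the 2-fold calls and the median scaling factor were tested on simulated data. The work used Python 3.11.15, pandas 2.3.3 and scipy 1.17.1.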

Additional observations from a re-analysis of the deposited data

How the results depend on the processing

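The direction of the group's median ratio depended on the scaling in R4 over R3, R5 over R4 and R5 over R2, and in R3 over R2 it was above 0 under all 3 scalings. The directions of the ratios of Cdc25b, Fzr1 and Ube2c in R3 against R2 and R5 against R2 did not. With median scaling, the genes at least 2-fold higher and lower and the median log2 ratio were 20, 0 and 1.04 for R3 over R2, 3, 0 and 0.019 for R4 over R3, 0, 3 and -0.31 for R5 over R4, and 12, 0 and 0.78 for R5 over R2. With globins removed they were 17, 0 and 0.94, then 1, 1 and -0.38, then 0, 3 and -0.15, then 9, 0 and 0.44. With a pseudocount of 0.1 RPKM they were 6, 1 and 0.21, then 0, 22 and -1.07, then 0, 3 and 0.041, then 3, 14 and -0.75, and with 5 RPKM they were 5, 0 and 0.18, then 0, 11 and -0.80, then 0, 1 and 0.028, then 3, 6 and -0.58. Neither filter changed these counts or medians. The median change in percentile rank was 9.87 for R3 over R2, -0.52 for R4 over R3, -1.23 for R5 over R4 and 8.65 for R5 over R2. It was 5.01, -0.26, -0.62 and 4.39 with no filter and 13.4, -0.70, -1.66 and 11.7 with a filter of 5 RPKM. With R2 not used, R5 against R3 gave 0 higher, 17 lower, a median of -0.96 and a rank change of -2.15. Median scaling then gave 1, 0 and -0.26, and globin removal 0, 3 and -0.49.

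Of 43 single ratios past 2-fold, 33 kept their sign with median scaling and 11 stayed past 2-fold, and 40 and 12 did so with globins removed. Those that turned sign with median scaling were, in R4 against R3, Foxm1 at 0.00015, Cdca8 at 0.060 and Prc1 at 0.019, and, in R5 against R2, Foxm1 at 0.42, Plk4 at 0.089, Nek2 at 0.48, Bub3 at 0.071, Cdca5 at 0.23, Cdc20 at 0.33 and Racgap1 at 0.53. With globins removed Foxm1 at 0.099, Nek2 at 0.16 and Racgap1 at 0.19 turned in R5 against R2. The cause of these changes is the scaling itself, which shifts every ratio of a comparison by nearly the same amount. No paired analysis was possible because each population has 1 library. Depth limits Pttg1, Ttk, Bub1 and Cenph most, with about 139, 195, 214 and 248 reads in their lowest libraries.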

Other observations

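Several pairs of related mitotic genes kept a steadier ratio than the APC/C activators did. Aurka stood at 1.01, 1.23, 1.78 and 1.58 times the level of Aurkb across R2, R3, R4 and R5, and Ccnb2 at 2.60, 3.33, 4.01 and 4.04 times that of Ccnb1. Bub1b was at 0.670, 0.742, 0.773 and 0.558 times the level of Bub3 in the same order. Plk1 was at 7.92, 8.04, 8.59 and 13.3 times the level of Plk4. These pairs were chosen after their values were seen.

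Where promoters held CCAAT at least 2 times, the spacing between copies was often similar. In 7 of the 33 mitotic genes with a window, or 21.2%, 2 copies began 30 to 35 bases apart on either strand, beside 3.59% of genes kept with a window. Of the 15 with at least 2 copies that was 46.7%, beside 20.3% of the 1224 genes kept with at least 2. The 7 were Ccnb1, Ccnb2, Cdca3, Aurka, Nek2, Cdca8 and Ube2c, and 5 of them act in entry. The spacing was chosen after the positions were seen, so the shares are a description only.

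Markers of other cell types were also present. Megakaryocyte markers summed to 47.2, 48.0, 25.6 and 77.0 RPKM across R2, R3, R4 and R5 over 9 genes, macrophage markers to 114, 69.5, 29.2 and 67.8 over 10 genes, and hepatocyte markers to 232, 566, 193 and 411 over 9 genes. Lymphoid markers summed to 24.0, 1.97, 0.88 and 2.24 RPKM across R2, R3, R4 and R5 over 8 genes. Their part in the mitotic gene levels was not tested.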
